A study of Mus musculus with 18 samples.

Results

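The genes described here are the 9 inositol phosphate and inositol pyrophosphate kinases Itpka, Itpkb, Itpkc, Ipmk, Ippk, Ip6k1, Ip6k2, Ppip5k1 and Ppip5k2. They were taken by gene symbol from the count tables, which list 34620 genes, and all 9 were among the 17421 genes with enough reads to be tested. Expression was measured by RNA-Seq in the granule cell layer of the ventral dentate gyrus, the cell layer of the hippocampal formation that receives most of its cortical input, in 6 libraries from Swiss Webster males 8 to 12 weeks old, 2 each from WT, F1 and F2. All of these males were WT at the serotonin 1A receptor gene. WT males descended from WT mothers of a separate lineage bred in parallel, F1 males were WT offspring of mothers heterozygous for the receptor (maternal genotype 5HT1A-/+), and F2 males were offspring of F1 females and WT males, with WT mothers and 5HT1A-/+ grandmothers. The males came from at least 3 litters, but the number of animals in a library is not given in the sources used here. The p-values rest on the spread between the 2 libraries of a group, pooled over all 6 libraries and in part over genes.

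Inositol phosphates are small signalling molecules made by adding phosphates one after another to an inositol ring. Inositol trisphosphate (IP3) is released when receptors activate phospholipase C, and it opens calcium channels of the endoplasmic reticulum. The IP3 3-kinases remove it by phosphorylation, and the multikinase Ipmk and the pentakisphosphate kinase Ippk carry the chain on to inositol hexakisphosphate (IP6). The IP6 kinases and the PP-IP5 kinases then add a further phosphate onto an existing one, which gives the inositol pyrophosphates, a class of messengers linked to vesicle trafficking, phosphate sensing and energy metabolism.

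The PP-IP5 kinase genes Ppip5k1 and Ppip5k2 were lower in both generations: Ppip5k1 fell by 27.9% in F1 and fell by 31.2% in F2, and Ppip5k2 fell by 29.8% and fell by 26.9%. The IP3 3-kinase gene Itpkb was higher in F2, by 61.2% (log2 fold change 0.69 ± 0.14 (SE, n = 2 libraries per group)). Ip6k1, an IP6 kinase gene, was lower in every F1 and F2 library than in either WT library but did not pass the threshold. The remaining 5 genes did not pass the test in either group. A gene passed at q under 0.01, with q the p-value of edgeR's exact test after Benjamini-Hochberg adjustment over all tested genes. Ppip5k1 and Ppip5k2 belong to an inositol phosphate gene list that the study drew up from these same libraries, so their direction is not independent evidence.

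Promoter windows of the genes that passed, and of Ip6k1, are shown as the sequence at a start site of each. Each is a RefSeq promoter window of 300 bases, from 250 bases before to 50 after the transcription start, printed 5′ to 3′ on the gene's strand as in the reference genome, which is not that of the Swiss Webster stock. The windows were given for GRCm38.p6 and each matched NCBIM37 (mm9), the build of the count files, exactly once. Capitals mark matches, on either strand, to 6 short motifs: the GC box GGGCGG, the CCAAT box CCAAT, the cyclic AMP response element half-site TGACG, the E-box CACGTG, the TATA box TATAAA and the NRF1 core GCGCATGC.
Ppip5k1, chr2:121176700-121176999, minus strand: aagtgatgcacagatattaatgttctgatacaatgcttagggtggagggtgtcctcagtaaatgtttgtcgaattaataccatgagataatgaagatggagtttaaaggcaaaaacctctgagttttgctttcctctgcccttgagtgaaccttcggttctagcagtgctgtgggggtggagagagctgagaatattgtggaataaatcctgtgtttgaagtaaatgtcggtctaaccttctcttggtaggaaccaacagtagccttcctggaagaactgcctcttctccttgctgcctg
Ppip5k2, chr1:99666620-99666919, minus strand: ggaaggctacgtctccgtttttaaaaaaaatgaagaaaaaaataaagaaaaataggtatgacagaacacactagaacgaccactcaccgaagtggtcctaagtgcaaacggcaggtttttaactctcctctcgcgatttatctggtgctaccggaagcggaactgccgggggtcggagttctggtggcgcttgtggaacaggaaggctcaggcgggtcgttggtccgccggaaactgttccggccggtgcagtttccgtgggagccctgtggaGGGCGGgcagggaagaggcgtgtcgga
Itpkb, chr1:182260357-182260656, plus strand: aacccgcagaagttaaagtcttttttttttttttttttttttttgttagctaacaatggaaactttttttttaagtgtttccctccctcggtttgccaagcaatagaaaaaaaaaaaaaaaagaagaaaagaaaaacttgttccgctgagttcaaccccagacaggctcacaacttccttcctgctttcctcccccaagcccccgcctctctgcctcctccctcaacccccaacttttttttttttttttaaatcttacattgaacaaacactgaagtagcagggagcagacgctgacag
Ip6k1, chr9:107904729-107905028, plus strand: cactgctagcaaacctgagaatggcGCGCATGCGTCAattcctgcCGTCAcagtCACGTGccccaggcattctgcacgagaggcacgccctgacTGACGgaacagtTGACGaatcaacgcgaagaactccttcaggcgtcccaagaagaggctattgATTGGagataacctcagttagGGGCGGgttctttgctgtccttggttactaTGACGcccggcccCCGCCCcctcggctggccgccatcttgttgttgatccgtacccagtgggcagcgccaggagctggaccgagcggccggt
The windows of Ppip5k1 and Itpkb held none of the 6 motifs, and that of Ppip5k2 held 1 GC box close to its end. The Ip6k1 window held 2 GC boxes, 1 CCAAT box, 5 half-sites, 1 E-box and 1 NRF1 core, of which the NRF1 core overlaps a half-site. GC content was 43.7% for Ppip5k1, 54% for Ppip5k2, 39.3% for Itpkb and 60% for Ip6k1. Among all 32851 RefSeq promoter windows of this length, 35.7% held a GC box, 37.4% a CCAAT box, 20.8% a half-site, 7.15% an E-box, 13.6% a TATA box and 2.71% an NRF1 core. The Ppip5k1 window is at an internal start: its upstream edge lies 4133 bases inside the gene as annotated, so it is 1 of several possible start regions. The Ppip5k2 window also lies inside the gene as annotated, with its upstream edge 69 bases inside. Its RefSeq start lies 319 bases from the nearest GENCODE M1 start. The other 3 printed windows each hold a GENCODE M1 start at the RefSeq start.

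The libraries held 26358165 to 33727936 reads on genes. Values are given as CPM, counts scaled to a common library size with TMM normalization. Libraries of a group varied with a common dispersion of 0.0113, a coefficient of variation of 10.6%. Some uniquely aligned reads were not matched over their full length to a gene's exons. Their share was 17.74% and 20.67% in WT, against 13.78% and 12.25% in F1 and 13.92% and 17.43% in F2. The F2 library with the higher share (replicate 2) came close to the lower WT library. A list of 5 nuclear-retained RNAs (Malat1, Neat1, Meg3, Miat and Snhg11) summed to 7396 to 7638 CPM in WT, 2809 to 3587 in F1 and 2843 to 3136 in F2, and all 5 fell in F1 and in F2. All 6 granule cell markers, Prox1 and Calb1 among them, were present in each library, with sums of 1180 to 1188 CPM in WT, 1030 to 1211 in F1 and 1320 to 1354 in F2, and none passed the test. Of 7 oligodendrocyte markers, 3 rose in F1 and 2 in F2, with sums of 1083 to 1972 CPM in WT, 2213 to 2937 in F1 and 1514 to 2861 in F2. Of 5 astrocyte markers, 1 rose in F1 and 2 in F2 (694 to 748 CPM in WT, 796 to 1114 in F1, 925 to 1193 in F2). Of 5 microglial markers none passed in F1 and 3 rose in F2 (89.5 to 93.5, 106 to 125 and 119 to 139 CPM). Endothelial markers (4 genes) summed to 64.1 to 69.6, 70.2 to 86.4 and 90.8 to 92.6 CPM, with 1 higher in F2. Interneuron markers (5 genes, 1 higher in F2) and markers of CA fields and mossy cells (5 genes, 2 higher in F2) were present in each library, with sums of 547 to 758 and 218 to 376 CPM. No marker was at 0 in any library, and the choroid plexus marker Ttr stayed between 0.187 and 1.1 CPM. The part of these differences in the results on the kinases was not tested.

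Of the 9 kinase genes, 2 passed in F1, both lower, and 3 passed in F2, 2 lower and 1 higher. Over all tested genes 12.3% passed in F1 (8.54% lower, 3.77% higher) and 12% in F2 (8.1% lower, 3.86% higher). The kinases' shares, 22.2% and 33.3%, rest on 2 and 3 genes. Their median log2 fold change was 0.06 in F1 and 0.05 in F2. Their median absolute change was 0.28 and 0.26, beside 0.25 and 0.26 over all tested genes. The 4 F1 and F2 libraries all lay below both WT libraries for 3 kinases (Ip6k1, Ppip5k1, Ppip5k2) and all above them for 3 (Itpka, Itpkb, Ipmk), while for Itpkc, Ippk and Ip6k2 they overlapped. Of all tested genes, 23.7% lay below in this way and 21% above. For Itpka the order rests on unrounded values, as F2 replicate 2 and WT replicate 1 both round to 184 CPM. The comparisons of F1 and F2 with WT share the same 2 WT libraries. In bulk tissue, fewer cells of a type and less RNA per cell cannot be told apart.

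**Figure D1:**
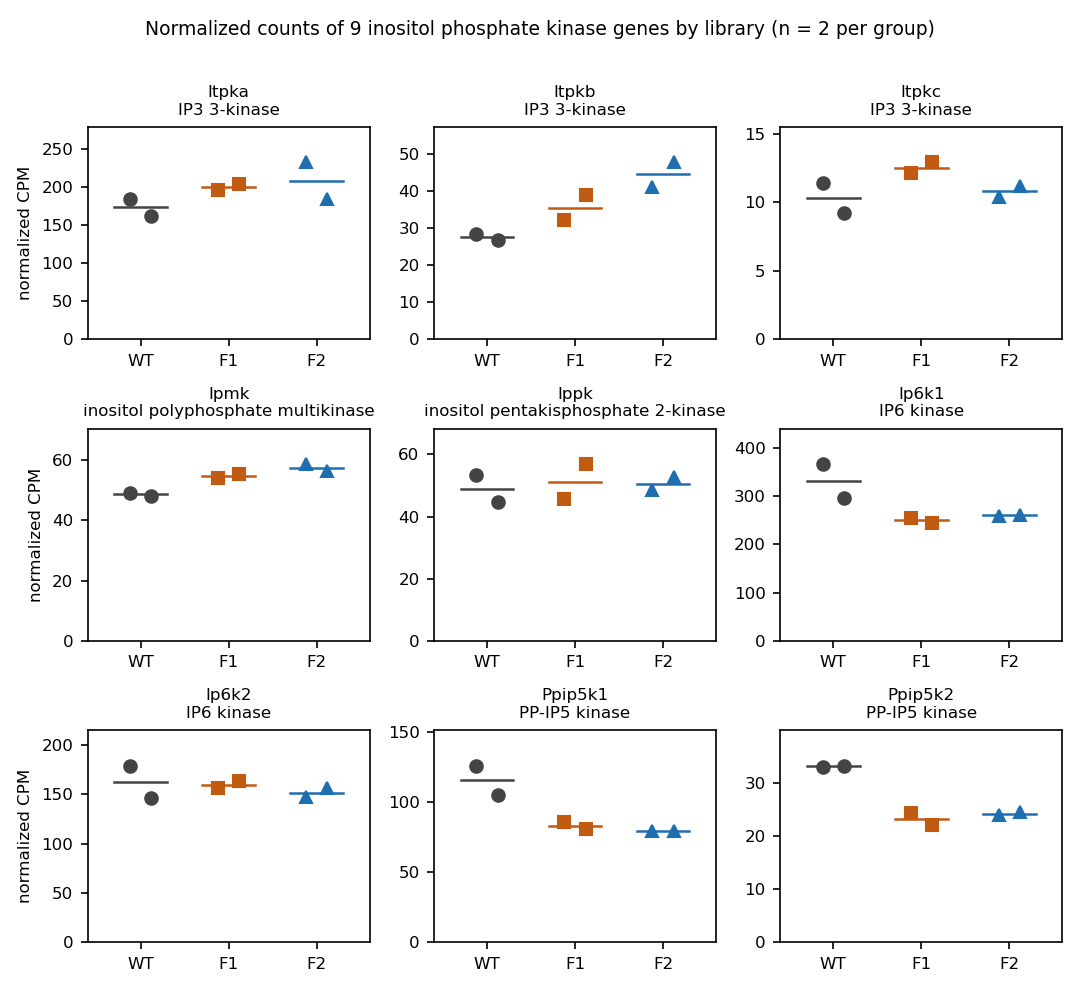
Normalized CPM (y axis, starting at 0) of the 9 kinase genes in each library of WT (circles), F1 (squares) and F2 (triangles), with a horizontal line at the mean of the 2 libraries. In the panels of Ip6k1, Ppip5k1 and Ppip5k2 all F1 and F2 points lie below both WT points, and in those of Itpkb and Ipmk they lie above. In the Itpka panel 1 F2 point is level with the higher WT point.

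The IP3 3-kinases convert IP3 to inositol tetrakisphosphate and so end its calcium-releasing signal. Itpka, the neuronal member, which also binds actin filaments in dendritic spines, lies at chr2:119568073-119576999 (plus strand). Its level was 184 and 162 CPM in WT, 196 and 204 in F1, and 232 and 184 in F2. The highest library was an F2 library, and the other F2 library stood level with the higher WT library. The log2 fold change was 0.21 ± 0.13 (SE, n = 2 per group; q = 0.278) in F1 and 0.26 ± 0.13 (q = 0.148) in F2, so that Itpka did not pass the test in either group.

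Itpkb, a broadly expressed family member best known from lymphocyte development, lies at chr1:182260607-182354933 (plus strand). Its level was 28.3 and 26.9 CPM in WT, 32.1 and 38.9 in F1, and 41.2 and 47.7 in F2. The groups did not overlap, with WT lowest and F2 highest. In F2, Itpkb rose 1.61-fold against WT (log2 fold change 0.69 ± 0.14, 95% interval 0.41 to 0.97, q = 5.23e-05, edgeR's exact test). In F1 the log2 fold change was 0.36 ± 0.14 (interval 0.08 to 0.65, q = 0.0555), which did not pass. Between F2 and F1 the difference was 0.33 ± 0.14 (interval 0.04 to 0.61) and also did not pass (q = 0.422), so a difference between the generations is not shown. Without F2 replicate 2, the highest library, the rise in F2 was 0.59 (q = 0.0225), past 0.05 but not 0.01. The summed granule cell and endothelial markers given above were also higher in both F2 libraries than in any other, and those of microglia and astrocytes reached their highest values in F2 but overlapped F1. Within the granule cell list, Prox1 and Calb1 lay above WT in both F2 libraries. The others, Dsp, C1ql2, Neurod1 and Rbfox3, overlapped WT, so the sum does not stand for the whole list. Of its 6256 exon bases, 66 are shared with Gm5069 on the other strand, and the strand setting of the counting is not given in the sources used here.

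Itpkc, the 3-kinase gene with the lowest level per exon length, lies at chr7:27992191-28013647 (minus strand). It had 11.4 and 9.22 CPM in WT, 12.1 and 12.9 in F1, and 10.4 and 11.2 in F2. The F2 libraries fell between the WT libraries. Its log2 fold change was 0.28 ± 0.18 in F1 (q = 0.289) and 0.07 ± 0.18 in F2 (q = 0.861). With 262 to 398 counts a library and the spread between libraries, the 95% interval in F1 ran from -0.08 to 0.63, so a change of this size was not resolved.

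Ipmk makes tetrakis- and pentakisphosphates and is also a lipid kinase, and Ippk adds the last phosphate of IP6. Ipmk (chr10:70810511-70896075, plus strand) had 49.2 and 48.2 CPM in WT, 54 and 55.5 in F1, and 58.7 and 56.3 in F2. All F1 and F2 libraries lay above WT and replicates were close, but the shift was small, 12.5% in F1 (log2 0.17 ± 0.12, q = 0.321) and 18.1% in F2 (0.24 ± 0.12, q = 0.134), and did not pass. Ippk (chr13:49516647-49558359, plus strand) had 53.4 and 44.6 CPM in WT, 45.5 and 56.9 in F1, and 48.6 and 52.6 in F2. The 3 groups overlapped. The log2 fold change of Ippk was 0.06 ± 0.14 in F1 (interval -0.22 to 0.35) and 0.05 ± 0.14 in F2 (interval -0.24 to 0.33). Its sign turned when single libraries were left out, with a range of -0.10 to 0.23 for F1 and of -0.07 to 0.19 for F2.

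The IP6 kinases place a phosphate on an existing phosphate of IP6 and so make an inositol pyrophosphate. Ip6k1 lies at chr9:107904920-107951111 (plus strand) and Ip6k2 farther along the same strand at chr9:108686127-108708664. Ip6k1 had 367 and 297 CPM in WT, 255 and 245 in F1, and 259 and 262 in F2. The F1 and F2 libraries were close to each other and below both WT libraries, which themselves stood farther apart. The log2 fold change of Ip6k1 was -0.41 ± 0.13 in F1 (interval -0.66 to -0.16, q = 0.0109) and -0.35 ± 0.13 in F2 (interval -0.60 to -0.10, q = 0.0343). These values passed 0.05, at which 20.8% of all tested genes passed in F1 and 20.7% in F2, but not 0.01. Without WT replicate 2, the lower WT library, the changes were -0.54 (q = 0.00175) and -0.48 (q = 0.00673), and both passed. Without WT replicate 1 they were -0.24 (q = 0.271) and -0.18 (q = 0.475). In F1 Ip6k1 also passed with DESeq2 (q = 0.00818), with total counts in place of TMM (q = 0.00637) and after correcting for GC content and exon length (q = 0.00323). These were 3 of 9 alternative settings with all libraries. In the others it did not pass, with q up to 0.0506 (quasi-likelihood test blocked on the replicate number). In F2 it passed in 0 of the 9. There q ran from 0.0187 (GC and exon length correction) to 0.0872 (quasi-likelihood test blocked on the replicate number).

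Ip6k2 had 179 and 146 CPM in WT, 156 and 163 in F1, and 147 and 156 in F2. The F1 libraries lay between the WT libraries, and F2 overlapped both groups. Its log2 fold change was -0.02 ± 0.13 in F1 (interval -0.27 to 0.23, q = 0.941) and -0.10 ± 0.13 in F2 (interval -0.35 to 0.15, q = 0.64). WT replicate 1 was above WT replicate 2 for both IP6 kinase genes, as for 8 of the 9 kinase genes, all but Ppip5k2. The share of all tested genes with this order was not computed, so the count has no background beside it. Whether Ip6k1 and Ip6k2 changed by different amounts was not tested.

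**Figure D2:**
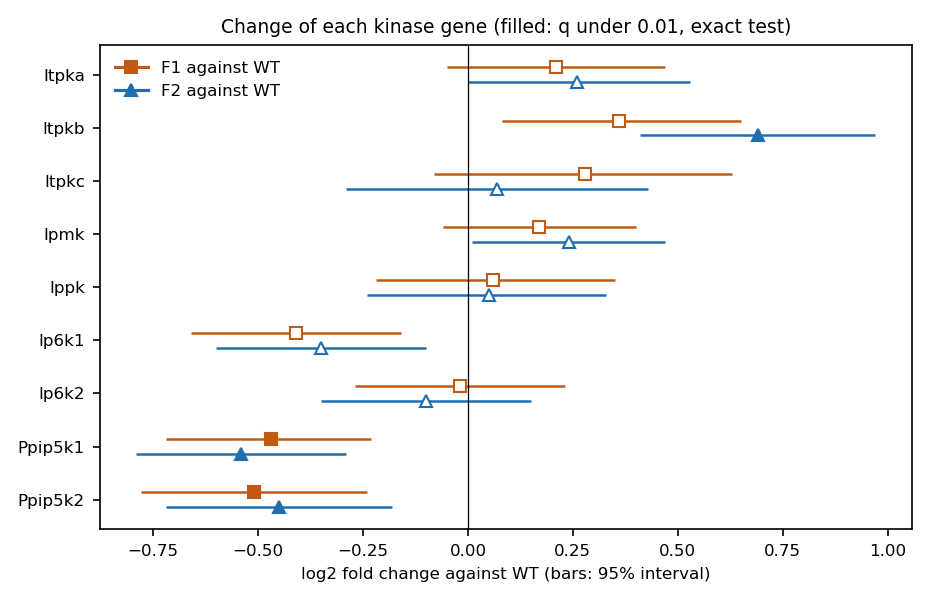
Log2 fold change (x axis) of each kinase gene (y axis) in F1 (squares) and F2 (triangles) against WT, with bars for the 95% interval and filled symbols for q under 0.01 by edgeR's exact test. Ppip5k1 and Ppip5k2 are filled and below 0 in both comparisons, Itpkb is filled at 0.69 in F2, and Ip6k1 is open with bars that stay below 0.

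The PP-IP5 kinases make the more highly phosphorylated inositol pyrophosphate from the product of the IP6 kinases, and carry a phosphatase domain beside the kinase domain. Ppip5k1 lies at chr2:121136297-121181132 (minus strand) and has 21 annotated transcripts over 30 exon blocks. It was counted with 4285 and 2977 reads in WT, 2589 and 2502 in F1, and 2115 and 2147 in F2. After normalization it had 126 and 105 CPM in WT, 85.5 and 81 in F1, and 79.1 and 79.7 in F2. The groups of F1 and F2 were close together and lay below both WT libraries, and the WT libraries were farther apart than the other 4 were from each other. Ppip5k1 fell by 27.9% in F1 (log2 fold change -0.47 ± 0.13, interval -0.72 to -0.23, q = 0.00223) and by 31.2% in F2 (-0.54 ± 0.13, interval -0.79 to -0.29, q = 0.000358).

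Part of the size of the Ppip5k1 change rests on WT replicate 1, the higher WT library. Without it the log2 fold change was -0.33 in F1 (q = 0.116) and -0.40 in F2 (q = 0.0571). Without F1 replicate 1 or 2 the change in F1 was -0.50 (q = 0.0128) or -0.43 (q = 0.0581), and without F2 replicate 1 or 2 the change in F2 was -0.53 (q = 0.0346) or -0.54 (q = 0.0222). With edgeR's quasi-likelihood test, which also allows for the uncertainty of each gene's dispersion, q was 0.0136 in F1 and 0.00752 in F2. Of its 12486 exon bases, 272 are shared with Mtap1a on the other strand.

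Ppip5k2 lies at chr1:99602625-99666988 (minus strand) and has 7 annotated transcripts over 30 exon blocks. Its reads numbered 1124 and 945 in WT, 739 and 685 in F1, and 641 and 661 in F2. It had 33.1 and 33.3 CPM in WT, 24.4 and 22.2 in F1, and 24 and 24.5 in F2. Replicates lay close together in each group, and the gap to WT was wider than the distance between replicates. Ppip5k2 fell by 29.8% in F1 (log2 fold change -0.51 ± 0.14, interval -0.78 to -0.24, q = 0.00246) and by 26.9% in F2 (-0.45 ± 0.14, interval -0.72 to -0.18, q = 0.00901). Its 11816 exon bases include 84 shared with Gin1 on the other strand.

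The size of the Ppip5k2 change moved little when single libraries were left out (-0.57 to -0.43 in F1, -0.46 to -0.43 in F2), but the call was lost in most of these cases. In F1, q was 0.0354 without WT replicate 1, 0.0382 without WT replicate 2 and 0.0666 without F1 replicate 2. In F2, q was 0.0833 and 0.073 without WT replicates 1 and 2, and 0.163 and 0.0953 without F2 replicates 1 and 2. The quasi-likelihood test gave q = 0.0114 in F1 and 0.0201 in F2. In F2 the Ppip5k2 call was also lost with DESeq2 (q = 0.0126) and with no filter on low counts (q = 0.0226). It was lost as well with the likelihood-ratio test (q = 0.0222) and the quasi-likelihood test (q = 0.0409) blocked on the replicate number. Under the quasi-likelihood test none of the 9 genes passed in F1, where 5.91% of all tested genes did, and 2 passed in F2, Itpkb (q = 0.00492) and Ppip5k1, beside 5.72% of all genes. In F1, 4 of the 9 had an unadjusted p under 0.05 with it, as with the exact test, beside 33.3% and 32.6% of all tested genes.

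F2 was compared with F1 to ask whether the generations differ. None of the 9 genes passed with edgeR's exact test or its quasi-likelihood test, and 1, Itpkb, had an unadjusted p under 0.05 with each. Over all genes 0.74% and 0.0115% passed with these tests, and 8.64% and 9.01% had an unadjusted p under 0.05. For Ppip5k1 the difference was -0.07 ± 0.13 (interval -0.32 to 0.18) and for Ppip5k2 it was 0.06 ± 0.14 (interval -0.21 to 0.33). Differences inside these intervals were not resolved by 2 libraries per group.

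Levels of different genes were compared as CPM per kb of exon, with the exon length taken as all annotated exon bases. In WT, Itpka was highest with 95.3 ± 8.35 (SD, n = 2), followed by Ip6k1 with 73.9 ± 11 and Ip6k2 with 57 ± 8.13. Ippk had 16.9 ± 2.15, Ppip5k1 9.24 ± 1.2, Ipmk 6.87 ± 0.0953 and Itpkb 4.41 ± 0.166. Itpkc (2.83 ± 0.419) and Ppip5k2 (2.81 ± 0.0122) came last, and they were the only neighbours in this order whose libraries overlapped. The PP-IP5 kinases thus stood well below the IP6 kinases whose product they use, and Ppip5k1 above Ppip5k2.

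The order changed with the group for the genes that moved. In F1, Ip6k1 (55.7 ± 1.54 CPM per kb) and Ip6k2 (56.2 ± 1.75) overlapped, and Ppip5k1 (6.67 ± 0.251) stood below Ipmk (7.72 ± 0.15). In F2, Ppip5k1 (6.36 ± 0.0358) also stood below Itpkb (7.11 ± 0.735), the reverse of their order in WT. Ppip5k2 was last in all groups, with 1.97 ± 0.132 in F1 and 2.05 ± 0.0343 in F2. The order depends on the length used. With the longest transcript of each gene, Ip6k2 stood above Ip6k1 in each group. The values were 88.1 and 74.3 CPM per kb in WT, overlapping, 86.7 and 56 in F1, and 82.2 and 58.4 in F2. Ip6k2 also overlapped Itpka in WT. With this length Ppip5k1 stood above Ippk in WT (20.9 and 16.9) and above Ipmk in F1 (15 and 10.1). In F2, Ppip5k1 (14.3) stood above Ipmk (10.6) and Itpkb (7.14). Ppip5k2 stood above Itpkb and Itpkc in WT (5.32, 4.43 and 3.17) and above Itpkc in F2 (3.89 and 3.33).

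**Figure D3:**
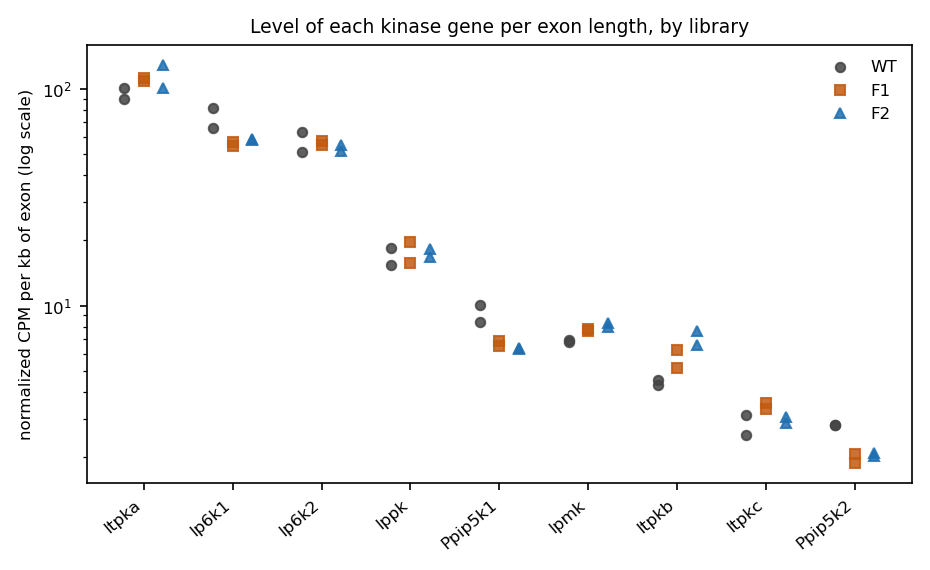
Normalized CPM per kb of exon (y axis, log scale) for each kinase gene in each of the 6 libraries, ordered by the WT mean. Itpka and both IP6 kinase genes lie above 50 in every library, Ippk between 15.4 and 19.6, and the other 5 genes at or below 10.1.

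For the genes that passed, the tested genes with the most similar profile over the 6 libraries were found by the root mean square difference of centred log2 CPM, among 10073 genes with at least 10 CPM. Nearest to Ppip5k1 were Safb (0.0232), Clcn7 (0.0237) and Inpp5b (0.0246), the last a 5-phosphatase of the same pathway. Nearest to Ppip5k2 were Poli (0.0197), Zfp513 (0.0206) and Ewsr1 (0.03). Nearest to Itpkb were Acvr1b (0.0677), Tns1 (0.0687) and Ppp1r16b (0.0716). Among the kinases themselves, Ppip5k1 stood 0.0815 from Ip6k1 and 0.0972 from Ppip5k2, and Ppip5k2 0.108 from Ip6k1. Ip6k1 was the 204th and Ppip5k2 the 359th nearest gene to Ppip5k1, so many other genes were closer. Over 6 libraries in 3 groups these values describe likeness only.

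The rest of the pathway was taken as 34 further genes, of which 33 were tested (Miox was not). In F1, 1 rose and 1 fell, and in F2, 5 rose and 2 fell. These are 6.06% and 21.2% of the tested genes of the list, beside the 12.3% and 12% over all genes. At 0.05, 7 passed in F1 and 9 in F2 (21.2% and 27.3%), beside 20.8% and 20.7% over all genes, so that the share in F1 was at the background. The median log2 fold change was 0.17 in F1 and 0.11 in F2, and that of all genes 0.01 and 0.

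Both kinase genes of the pathway outside the 9 did not pass. Itpk1, whose product phosphorylates inositol phosphates at several positions, had 54.6 and 38.8 CPM in WT, 64 and 68.1 in F1, and 39 and 58.2 in F2. Both F1 libraries lay above WT (log2 fold change 0.50 ± 0.19, q = 0.042), and of the F2 libraries 1 lay above WT and 1 between the WT libraries (0.06 ± 0.19, q = 0.887). Ip6k3, the IP6 kinase best known from muscle, was counted with 4 to 19 reads per library, so that a change was not detectable at this depth.

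Among enzymes that remove phosphates, Inpp5b, a 5-phosphatase, had 43.5 and 37.7 CPM in WT, 30.5 and 29.3 in F1, and 28.6 and 28.8 in F2. It fell in F1 (log2 fold change -0.44 ± 0.13, q = 0.00896) and in F2 (-0.50 ± 0.13, q = 0.00256). Inpp5j, another 5-phosphatase, had 121 and 85.2 CPM in WT, 83.3 and 79.2 in F1, and 62.3 and 76.5 in F2, and it fell in F2 (-0.57 ± 0.16, q = 0.00429). These were the 2 of 11 5-phosphatase genes that passed in F2 (18.2%, beside 12% over all genes). Of the 11, 4 had all F1 and F2 libraries below WT and 3 above, and 44.7% of all tested genes lay on one side in this way. Nudt4, which cleaves pyrophosphates of inositol, had 65.3 and 77.9 CPM in WT, 92.9 and 92.8 in F1, and 95.4 and 101 in F2, and it rose in F2 (0.46 ± 0.12, q = 0.00284). Of 5 genes for pyrophosphate and polyphosphate phosphatases it was the only one that passed. Impad1, a phosphatase of the inositol monophosphatase family that acts in the Golgi, had 91.7 and 96.3 CPM in WT, 122 and 125 in F1, and 126 and 119 in F2. It rose in F1 (0.39 ± 0.11, q = 0.00578) and in F2 (0.38 ± 0.11, q = 0.0078).

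Among channels and transporters, Itpr1, the main neuronal IP3 receptor, had 118 and 113 CPM in WT, 130 and 182 in F1, and 201 and 186 in F2. It rose 1.68-fold in F2 (log2 fold change 0.75 ± 0.15, q = 1.6e-05), and in F1 the value was 0.44 ± 0.15 (q = 0.0208). Slc2a13, the proton-coupled inositol transporter, had 104 and 110 CPM in WT, 122 and 136 in F1, and 165 and 137 in F2, and it rose in F2 (0.49 ± 0.13, q = 0.00184). Xpr1, the phosphate exporter whose sensing domain binds inositol pyrophosphates, had 115 and 122 CPM in WT, 135 and 168 in F1, and 172 and 164 in F2, and it rose in F2 (0.50 ± 0.13, q = 0.0016). None of these 3 genes passed in F1. They are named because they passed as higher in F2 against the same 2 WT libraries. The position of their F1 libraries above WT is therefore not independent evidence. The quasi-likelihood test left no gene of this list in F1 (14 of 33 had an unadjusted p under 0.05, against 13 with the exact test, beside 33.3% and 32.6% of all genes) and Itpr1 alone in F2 (q = 0.00517). Counts of calls also moved with single libraries. In F2 the count fell most without WT replicate 1, F2 replicate 1 or F2 replicate 2. In F1 it fell without WT replicate 1, F1 replicate 2, F2 replicate 1 or F2 replicate 2. The shares of all tested genes with libraries left out were not computed, so these falls have no background beside them.

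**Figure D4:**
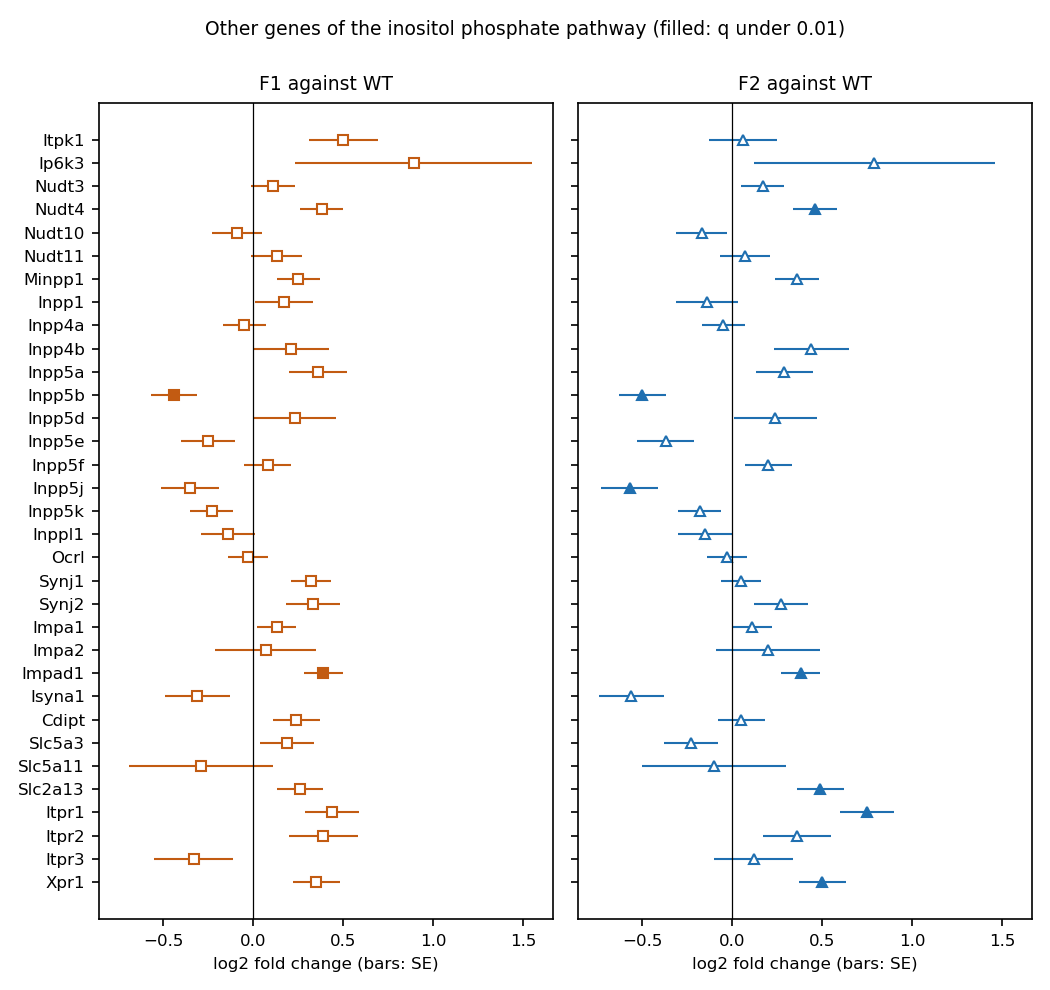
Log2 fold change (x axis, bars for the SE) of the 33 tested other genes of the inositol phosphate pathway (y axis) in F1 (left) and F2 (right) against WT, with filled symbols for q under 0.01 by edgeR's exact test. Inpp5b and Impad1 are filled in both panels, and Nudt4, Inpp5j, Slc2a13, Itpr1 and Xpr1 in the F2 panel only.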

How the data were processed

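The values analysed are read counts per gene symbol in 6 RNA-Seq libraries, 2 each of WT, F1 and F2. The authors microdissected the granule cell layer from frozen sections, prepared polyA RNA libraries and sequenced single-end reads of 50 bp. They aligned the reads to mm9 with TopHat without a search for new junctions. The submitters' processing notes give TopHat2 2.0.2 with Bowtie 1.0.0, while the study's methods name a later TopHat version. The authors deposited raw counts from HTSeq in its intersection-strict mode, with no normalization. This mode drops reads that reach outside annotated exons or cannot be given to 1 gene. Rows for such reads were left out of library sizes. Of uniquely aligned reads, 12.25% to 20.67% were not matched over their full length to a gene's exons, and 1.335% to 1.533% were ambiguous. The bisulfite sequencing samples were not analysed here.

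Genes with low counts were removed with filterByExpr, library sizes were scaled by TMM, and groups were compared by the exact test of edgeR 4.0.16 (R 4.3.3), with common and tagwise dispersion over all 6 libraries and Benjamini-Hochberg adjustment over 17421 genes. The threshold was q under 0.01. The study names edgeR with tagwise dispersion but not which of its tests. Its results use q under 0.01, while its methods name an adjusted threshold of 0.05. Standard errors follow from the mean counts and the dispersion (delta method), and 95% intervals are 1.96 SE on either side. At the depth of the 9 genes, 262 or more reads per library, the number of libraries limits precision more than counting error does, unlike for Ip6k3 with its few reads. Alternatives were edgeR's quasi-likelihood test, DESeq2 1.42.0, likelihood-ratio and quasi-likelihood tests blocked on the replicate number, other normalizations and filters, dispersion from the groups compared, a GC and exon length correction, leaving out each library in turn and a q of 0.05.

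The 9 genes and the lists of pathway genes and markers were chosen with earlier results of these data known. Named are the 9 genes, pathway genes past the threshold in F1 or F2, Itpk1 and Ip6k3 in any case, and for each of the 9 that passed the 3 genes of nearest profile. Positions and exon lengths come from GENCODE M1 on NCBIM37. Promoter windows come from RefSeq (GRCm38.p6) and were placed on NCBIM37 by exact match. Summaries used pandas 2.3.3 under Python 3.11.15, and figures matplotlib 3.10.9.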

Additional observations from a re-analysis of the deposited data

How the results depend on the processing

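Of 405 recomputed log2 fold changes of the 9 kinase genes, 362 kept their direction and their side of the threshold, 24 lost the call, 5 gained it and 14 turned sign, none of these 14 for a value that had passed. The cause was not tested. The level of nuclear RNAs separates WT from F1 and F2 and cannot be told apart from the groups, and 2 libraries per group limit what a single call can carry.

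The count of kinase genes called in F1, 2 by the exact test, was 0 with the quasi-likelihood test and 0 with it and the replicate block, and between 0 and 2 with single libraries left out. In F2, 3 became 2 with the quasi-likelihood test, the blocked likelihood-ratio test, DESeq2 and no filter. It became 1 with the quasi-likelihood test and the replicate block, and it also fell when some libraries were left out. For other pathway genes in F1, 2 became 0 with the quasi-likelihood test, with either test under the replicate block and with dispersion from the groups compared, 1 with DESeq2, with RLE size factors, with total counts and with no filter, 4 with the GC and length correction, 7 at q under 0.05, and 0 to 3 with libraries left out. In F2, 7 became 1 with the quasi-likelihood test, 1 with it and the replicate block, and 1 to 7 with libraries left out. Between F2 and F1, none of the other pathway genes passed with all libraries, and that count moved with libraries left out. Shares of all tested genes were computed for the unblocked quasi-likelihood test and for q under 0.05, not for the other settings.

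Signs turned for Ippk between F2 and F1 under the GC and length correction (0.00) and for Ip6k2 in F1 without a filter (0.00), both values near 0. With single libraries left out, log2 fold changes ran from -0.11 to 0.21 for Itpka between F2 and F1, from -0.07 to 0.23 for Itpkc in F2, from -0.10 to 0.23 for Ippk in F1, from -0.07 to 0.19 for Ippk in F2 and from -0.17 to 0.15 for Ippk between F2 and F1. They ran from -0.15 to 0.13 for Ip6k2 in F1, from -0.23 to 0.06 for Ip6k2 in F2 and from -0.01 to 0.13 for Ppip5k2 between F2 and F1.

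The labels number the replicates but do not say whether equal numbers pair the samples. Deviations of same-numbered libraries correlated at -0.00862 for WT and F1, -0.0898 for WT and F2 and -0.23 for F1 and F2. With 2 libraries per group these values cannot show whether the samples were paired. With a block on the replicate number, the likelihood-ratio test called 2 kinase genes in F1 and 2 in F2. With the F2 numbers crossed, an alternative chosen after seeing the data, the blocked test called 3 and 3. The shares of all tested genes called by these blocked tests were not computed, so the counts have no background beside them. Replicates were not duplicates, with a chi-square per degree of freedom of 23 in WT, 18.5 in F1 and 22.3 in F2. Scaling moved the median log2 fold change of all genes by less than 0.1.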
